A study of Mus musculus with 6 samples.

Results

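The genes of 7 solute carrier families that move amino acids and related compounds across membranes were compared between muscle of FLExDUX4 mice and of their wild-type (WT) littermates. Genes were taken by name from the deposited table: every mouse gene of the families Slc1a, Slc3a, Slc6a, Slc7a, Slc36a, Slc38a and Slc43a, without pseudogenes. This gave 67 of the 52550 mouse genes, namely 22 of Slc6a, 16 of Slc7a, 11 of Slc38a, 7 of Slc1a, 6 of Slc36a, 3 of Slc43a and 2 of Slc3a. The name rule also takes in 4 genes named as lying opposite a transporter gene (Slc6a19os, Slc7a6os, Slc36a1os and Slc36a3os), which are not known as transporters. FLExDUX4 mice carry, at the Rosa26 locus on one chromosome, an inverted human DUX4 transgene between lox sites, and without Cre it is expressed weakly by leakage. DUX4 is the transcription factor whose misexpression causes facioscapulohumeral muscular dystrophy. The samples were quadriceps of male mice at 13 weeks, 3 FLExDUX4 and 3 WT, per the labels, whereas the study's methods give triceps at 2 months. The human transgene was not analysed here.

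Skeletal muscle holds the body's main pool of free amino acids, and these carriers set how fast amino acids enter and leave the fibers. Some carriers work with sodium and concentrate their substrate in the cell, some exchange one amino acid for another, and some sit on lysosomes, where they feed the mTORC1 kinase complex that senses amino acids. Light chains of the Slc7 family reach the cell surface only when joined to a heavy chain of the Slc3 family. The Slc6 family also carries taurine, creatine and neurotransmitters, so that not every gene named here moves an amino acid used for protein.

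The 3′ ends of transcripts were sequenced with QuantSeq, in which a transcript gives about 1 read whatever its length, so that levels were compared between genes without dividing by length. The deposited counts used here were 1 total per genotype, 13110125 on mouse genes in FLExDUX4 and 18367364 in WT. There is therefore no replicate check on any difference below, no p-value was computed, and 1 mouse could decide a value. After TMM scaling, each gene was given the log2 of its FLExDUX4 level over its WT level, called its ratio below, with a pseudocount of 0.5. The 95% confidence intervals (CI, Clopper-Pearson) cover counting error only. The labelled tissue showed its markers: 10 skeletal muscle genes such as Acta1 and Ckm summed to 117284 CPM (scaled counts-per-million) in FLExDUX4 and 117483 CPM in WT.

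Of the 67 genes, 43 had at least 1 count in either genotype and 24 had none. A count of 0 allows a level of up to 0.231 CPM in FLExDUX4 and 0.162 CPM in WT. Among the genes without a count were Slc7a11, the cystine carrier, Slc3a1, the heavy chain of kidney and gut, and Slc6a3, the dopamine transporter. The others were Slc1a6, Slc1a7, Slc6a5, Slc6a11, Slc6a12, Slc6a14, Slc6a16, Slc6a20b, Slc6a21, Slc7a3, Slc7a9, Slc7a12, Slc7a13, Slc7a14, Slc7a15, Slc36a3, Slc38a5, Slc38a8 and the opposite-strand genes other than Slc7a6os. After a filter on low counts, 32 of the 67 genes were compared, beside 13396 mouse genes in all. Of the 32, 5 passed the filter through 1 genotype only, Slc6a2, Slc38a11, Slc7a5 and Slc7a10 among them, which forces some difference between the totals. A further 11 genes had counts but were too sparse to compare, with at most 14 in either total: Slc1a2, Slc1a4, Slc6a4, Slc6a7, Slc6a15, Slc6a17, Slc6a18, Slc6a19, Slc6a20a, Slc7a4 and Slc7a7.

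Together the 67 genes took 8940 counts in FLExDUX4 and 11652 in WT, which is 682 CPM (CI 668 to 696) and 634 CPM (CI 623 to 646) before scaling. The scaled ratio of these sums was 0.13 on the log2 scale (CI 0.09 to 0.17), or -0.14 with scaling by the added spike-in RNAs. Spike-in scaling lowered every ratio by the same 0.28, the median over all genes included, so that the order of genes by ratio does not depend on it. Few genes made up most of the sum. Slc38a2 alone gave 30.3% of it in FLExDUX4 and 29.3% in WT, and the 10 highest genes gave 87.0% and 87.2%. Of those 10 genes, 9 were the same in both genotypes.

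Slc38a2 encodes SNAT2, a sodium-coupled carrier of alanine, glutamine and other small neutral amino acids. It had 2710 counts in FLExDUX4 and 3410 in WT, or 209 and 184 CPM. Slc6a6, the taurine transporter, was next, with 1837 and 2343 counts, or 142 and 126 CPM. Slc38a4, a sodium-coupled carrier of the same family as SNAT2, had 710 and 940 counts, or 54.7 and 50.6 CPM. These 3 genes held the same places in both genotypes, each above the next by more than counting error. Below them the order differed. Slc6a8, the creatine transporter, came next in WT mice with 803 counts, above Slc7a2 with 617 by more than counting error. In FLExDUX4 mice it had 424 counts and stood next below Slc7a2 with 482, from which its counts could not be told apart, and Slc3a2 with 492 stood above both. Along the whole order of 32 genes, 7 of 31 neighbouring pairs were apart by more than counting error in WT mice and 6 of 31 in FLExDUX4 mice.

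**Figure D1:**
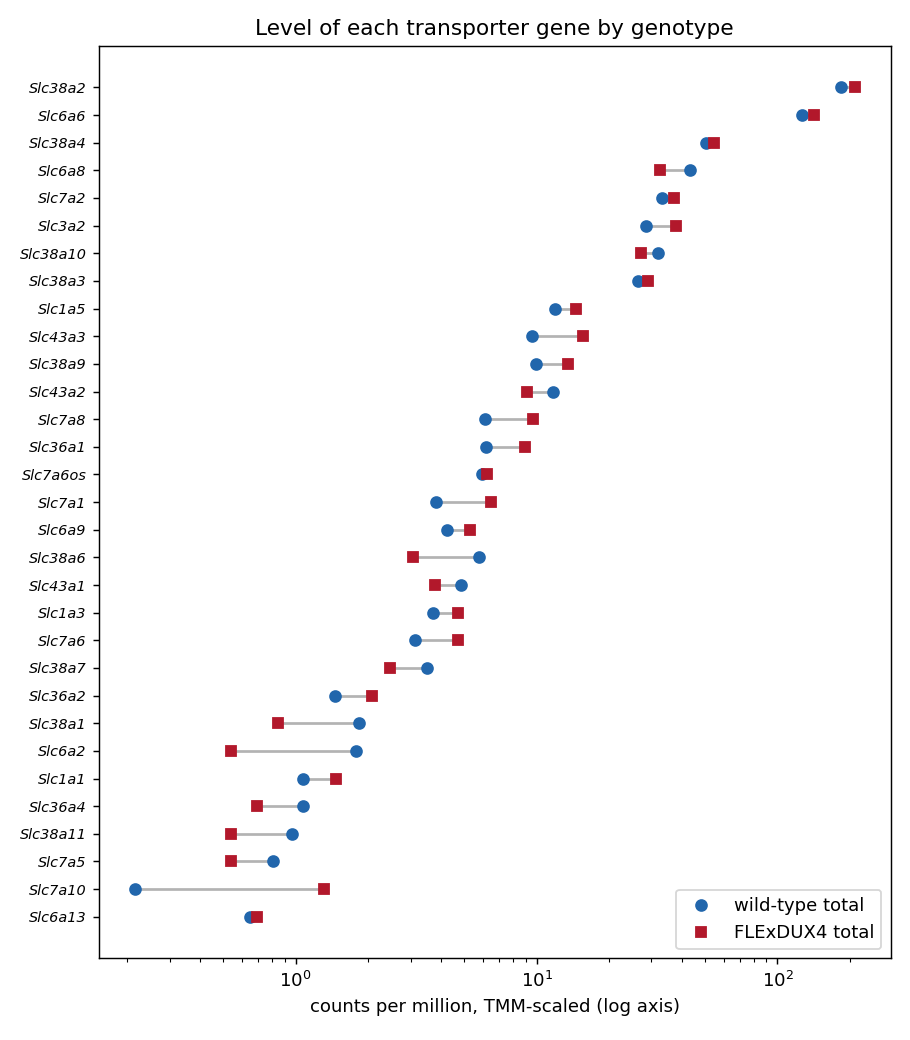
Scaled level of 31 of the compared genes in CPM on a log axis, with 1 point per genotype total and no error bar, ordered by counts over both genotypes. Slc38a2 and Slc6a6 lead in both genotypes, and Slc6a8 is 32.7 CPM in FLExDUX4 and 43.3 CPM in WT mice.

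Among the 32 genes, 20 had a higher and 12 a lower scaled total in FLExDUX4 mice, where 6685 of all 13396 genes compared had a higher one. The median ratio of the 32 was 0.15, beside -0.001 over all genes compared. With spike-in scaling the medians were -0.13 and -0.28, and 7 genes changed direction. At least 1.5-fold higher in FLExDUX4 mice were 5 genes, where 13.2% of all genes were, and at least 1.5-fold lower were 6 genes, where 13.5% of all genes were. The CI lay above 0 for 11 genes, beside 20.5% of all genes, and below 0 for 7 genes, beside 20.6%. Both limits were passed by 5 of the 32 in the higher direction (15.6%, beside 9.93% of all genes) and by 4 in the lower (12.5%, beside 10.2%). Of these 9 genes, 3 are among those that passed the filter through 1 genotype only, Slc6a2 and Slc7a10 included. The compared transporter genes had a median of 151.5 counts over both totals, fewer than the median of all genes compared. The genes with at least 100 counts over both totals held 21 genes of the families, Slc7a6os included. Of these 21, 4 were at least 1.5-fold higher, beside 6.35% of all genes with that many counts, and 1 was at least 1.5-fold lower, beside 5.83%. With so few genes and no replicates, these shares describe the totals and are no test.

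**Figure D2:**
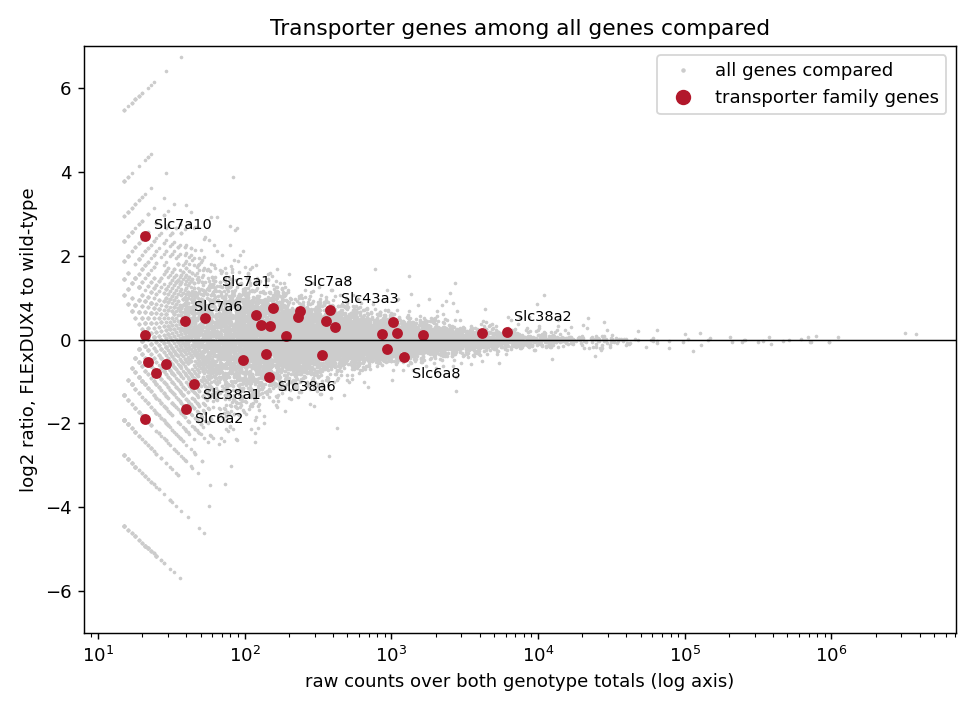
Log2 of FLExDUX4 over WT against raw counts over both genotype totals (log axis) for the 13396 genes compared (grey) and the 32 transporter family genes (red), each point 1 gene. The red points lie within the grey cloud, which widens toward low counts, where Slc7a10 and Slc6a2 lie.

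Of the 7 compared genes with Slc7 names, which include Slc7a6os, 6 had a higher scaled total in FLExDUX4 mice, beside 6685 of all 13396 genes. Past both limits were 4 of the 7 (Slc7a1, Slc7a6, Slc7a8 and Slc7a10), beside 9.93% of all genes. Slc7a10 was kept by the filter through FLExDUX4 alone. With spike-in scaling the ratios of Slc7a1 (0.48), Slc7a8 (0.40) and Slc7a6 (0.31) stayed above 0 but under the limit of 1.5-fold, and Slc7a10 alone of the 4 was past it. The light chain Slc7a8 encodes LAT2, an exchanger of large and small neutral amino acids. It had 126 counts in FLExDUX4 and 113 in WT although the FLExDUX4 total is smaller, so that the scaled levels were 9.71 and 6.09 CPM. The ratio was 0.67 (CI 0.30 to 1.05), a 1.59-fold difference. Slc7a6, the light chain y+LAT2 (chromosome 8 of GRCm38, 106168857 to 106198706, plus strand), had 61 counts against 58 and a ratio of 0.59 (CI 0.05 to 1.13), just past the limit, which it missed with upper quartile or gene total scaling and with either other filter. Slc7a6os, which ends 2010 bases away on the other strand, had 81 against 110 and a ratio of 0.08 (CI -0.36 to 0.50), or -0.20 with spike-in scaling.

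Slc7a10 (chromosome 7, 35186385 to 35201114, plus strand) encodes Asc-1, a light chain for small neutral amino acids that is known as a surface marker of white adipocytes. It had 17 counts in FLExDUX4 and 4 in WT, a ratio of 2.48 with a wide CI of 0.99 to 4.63. The gene overlaps Lrp3 on the opposite strand, which had 23 and 33 counts. Slc6a9 likewise overlaps B4galt2 and Ccdc24, and whether strand was used in the counting is not given in the sources used here. Of 10 adipocyte markers, all were detected in both genotypes and 7 had a higher scaled total in FLExDUX4 mice. Their sums were 2359 CPM in FLExDUX4 and 2212 CPM in WT mice, most of it from Car3, which muscle fibers also express. In the higher direction Cfd (ratio 0.88), the gene of the secreted protease adipsin, Adipoq and Retn passed both limits, 3 of 10 beside 9.93% of all genes, and with spike-in scaling Adipoq (0.43) and Retn (0.41) were under 1.5-fold. The 3 lower markers were Pck1, with a ratio of -0.53 (CI -0.97 to -0.11), Adrb3, with -0.52 (CI -1.89 to 0.65), and Lep. Adipoq, the gene of the adipocyte hormone adiponectin, had a ratio of 0.70 (CI 0.46 to 0.95), Retn of 0.69 (CI 0.18 to 1.2) and Lep, at 12 counts against 31, of -0.82 (CI -1.95 to 0.15). The part of adipocytes in the Slc7a10 counts was not tested, and in whole muscle more cells of a type cannot be told apart from more RNA per cell.

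Slc3a2 encodes the heavy chain CD98, which the light chains Slc7a5, Slc7a6, Slc7a8, Slc7a10 and Slc7a11 pair with. It had 492 counts in FLExDUX4 and 528 in WT, or 37.9 and 28.4 CPM, a ratio of 0.41 (CI 0.23 to 0.59) that was 0.14 with a CI that held 0 under spike-in scaling. Heavy chain transcripts were thus more abundant than those of all compared light chains together: the 9 listed light chains summed to 16.9 CPM in FLExDUX4 and 10.5 CPM in WT, a ratio of 0.68 (CI 0.40 to 0.97). Slc7a5, the light chain LAT1 that carries leucine, was close to the detection limit with 7 counts against 15, and its ratio of -0.53 had a CI of -2.12 to 0.80.

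Cationic amino acids such as arginine enter through Slc7a1 and Slc7a2. Slc7a2 was the higher of the pair, with 482 counts in FLExDUX4 and 617 in WT, and its ratio was 0.16 (CI -0.01 to 0.33), or -0.12 with spike-in scaling. Slc7a1 (chromosome 5, 148327410 to 148399904, minus strand) had 84 counts against 71, which came to 6.47 and 3.83 CPM after scaling. The ratio of 0.76 (CI 0.29 to 1.24) is a 1.69-fold difference. The ratio of Slc7a1 exceeded that of Slc7a2 by 0.60 (CI 0.09 to 1.11). Such differences between 2 genes are the same under every scaling, and were computed from the counts without the pseudocount, so that for sparse genes they depart from the difference of the printed ratios. They were computed for 81 pairs within the families, and their CIs are not adjusted for that number.

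The Slc38 family split. Its 3 most abundant amino acid carriers at the cell surface had ratios of 0.11 to 0.18. Slc38a2 had a ratio of 0.18 (CI 0.11 to 0.26), Slc38a4 of 0.11 (CI -0.03 to 0.25) and Slc38a3, the glutamine carrier SNAT3 with 377 counts against 491, of 0.14 (CI -0.06 to 0.33), and all 3 ratios were below 0 with spike-in scaling. The difference between Slc38a2 and Slc38a4 was 0.07 (CI -0.09 to 0.23). Slc38a9, a lysosomal protein that reports arginine to mTORC1, had 176 counts against 184 and a ratio of 0.45 (CI 0.15 to 0.76), or 0.18 with a CI that held 0 under spike-in scaling. Lower in FLExDUX4 mice were Slc38a10, with 351 counts against 590 and a ratio of -0.23 (CI -0.43 to -0.04), and 4 genes with fewer counts.

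Slc38a6 (chromosome 12, 73286779 to 73354049, plus strand), a member of the family whose substrates are less well known, had 40 counts in FLExDUX4 and 107 in WT, or 3.08 and 5.77 CPM. Its ratio of -0.89 (CI -1.47 to -0.37) is a 1.86-fold difference, and it lay 1.09 (CI 0.55 to 1.66) below that of Slc38a2. Slc38a1, encoding SNAT1, had 11 counts against 34 and a ratio of -1.07 (CI -2.24 to -0.10). Slc38a1 and Slc38a2 are neighbours on chromosome 15, 44478 bases apart with no coding gene between them, and Slc38a1 lay 1.30 (CI 0.28 to 2.43) below Slc38a2 on the log2 scale. Slc38a7, which exports glutamine from lysosomes, had 32 counts against 65 (ratio -0.49, CI -1.16 to 0.13), and Slc38a11 had 7 against 18 (ratio -0.79, CI -2.35 to 0.48). Summed over the family, the totals were 340.2 CPM in FLExDUX4 and 315 CPM in WT, a ratio of 0.11 that was -0.16 with spike-in scaling.

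Creatine and taurine transporters of the Slc6 family went in opposite directions under TMM scaling. Slc6a8 (chromosome X, 73673150 to 73682502, plus strand) carries the creatine that muscle phosphorylates as an energy store. Its 424 counts in FLExDUX4 and 803 in WT gave a ratio of -0.40 (CI -0.58 to -0.23), the lowest ratio among the 10 genes with the most counts. Slc6a6 had a ratio of 0.17 (CI 0.08 to 0.25), which was -0.11 with spike-in scaling. The ratio of Slc6a6 exceeded that of Slc6a8 by 0.57 (CI 0.38 to 0.77), whatever the scaling. The genes for creatine synthesis, Gatm and Gamt, had ratios of -0.15 (CI -0.66 to 0.35) and -0.07 (CI -0.39 to 0.24). Csad and Cdo1, which lead from cysteine to taurine, had ratios of -0.46 (CI -0.86 to -0.08) and 0.21 (CI -0.15 to 0.57).

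The remaining Slc6 genes were sparse. Slc6a9, the glycine transporter GlyT1, had 69 counts against 79 and a ratio of 0.32 (CI -0.17 to 0.81). Slc6a2, the noradrenaline transporter of sympathetic nerve endings, had 7 counts in FLExDUX4 and 33 in WT, a ratio of -1.64 (CI -3.14 to -0.52). Slc6a13, a carrier of GABA and taurine, had 9 against 12. Of 10 Schwann cell and nerve markers, 5 were higher and 5 lower, and their sums were 165 CPM in FLExDUX4 and 159 CPM in WT.

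In the Slc43 family the facilitators of large neutral amino acids had lower scaled totals in FLExDUX4 mice and their relative a higher one. Slc43a1, encoding LAT3, had 49 counts in FLExDUX4 and 90 in WT (ratio -0.35, CI -0.89 to 0.16). Slc43a2, encoding LAT4, had 118 against 217 (ratio -0.36, CI -0.70 to -0.03). Slc43a3 (chromosome 2, 84936579 to 84958509, plus strand), which is known to carry nucleobases such as adenine rather than amino acids, had 203 against 178, or 15.6 and 9.59 CPM. Its ratio of 0.71 (CI 0.41 to 1.0) is a 1.63-fold difference, and was 0.43, under 1.5-fold, with spike-in scaling. It exceeded the ratio of Slc43a1, which lies 72984 bases away on chromosome 2 with the coding gene Rtn4rl2 between, by 1.06 (CI 0.46 to 1.68), and that of Slc43a2 by 1.07 (CI 0.62 to 1.52). Of 10 endothelial markers, 4 were higher and 6 lower in FLExDUX4 mice. Their sums were 240.3 CPM against 253 CPM, a ratio of -0.08 (CI -0.14 to -0.01).

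The Slc1 and Slc36 families had few counts. Slc1a5, the neutral amino acid exchanger ASCT2, had 190 counts in FLExDUX4 and 221 in WT (ratio 0.30, CI 0.01 to 0.58). The glutamate transporters Slc1a3 and Slc1a1 had 61 against 69 and 19 against 20 counts, with ratios of 0.34 (CI -0.18 to 0.86) and 0.44 (CI -0.54 to 1.42). Slc36a1, a proton-coupled carrier on lysosomes, had 116 counts against 114, or 8.94 and 6.14 CPM, and a ratio of 0.54 (CI 0.16 to 0.93). With spike-in scaling Slc1a5 was at 0.023 and Slc36a1 at 0.27, and their CIs then held 0. Slc36a2 had 27 counts in each genotype and Slc36a4 had 9 against 20, and the CIs of both ratios held 0.

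**Figure D3:**
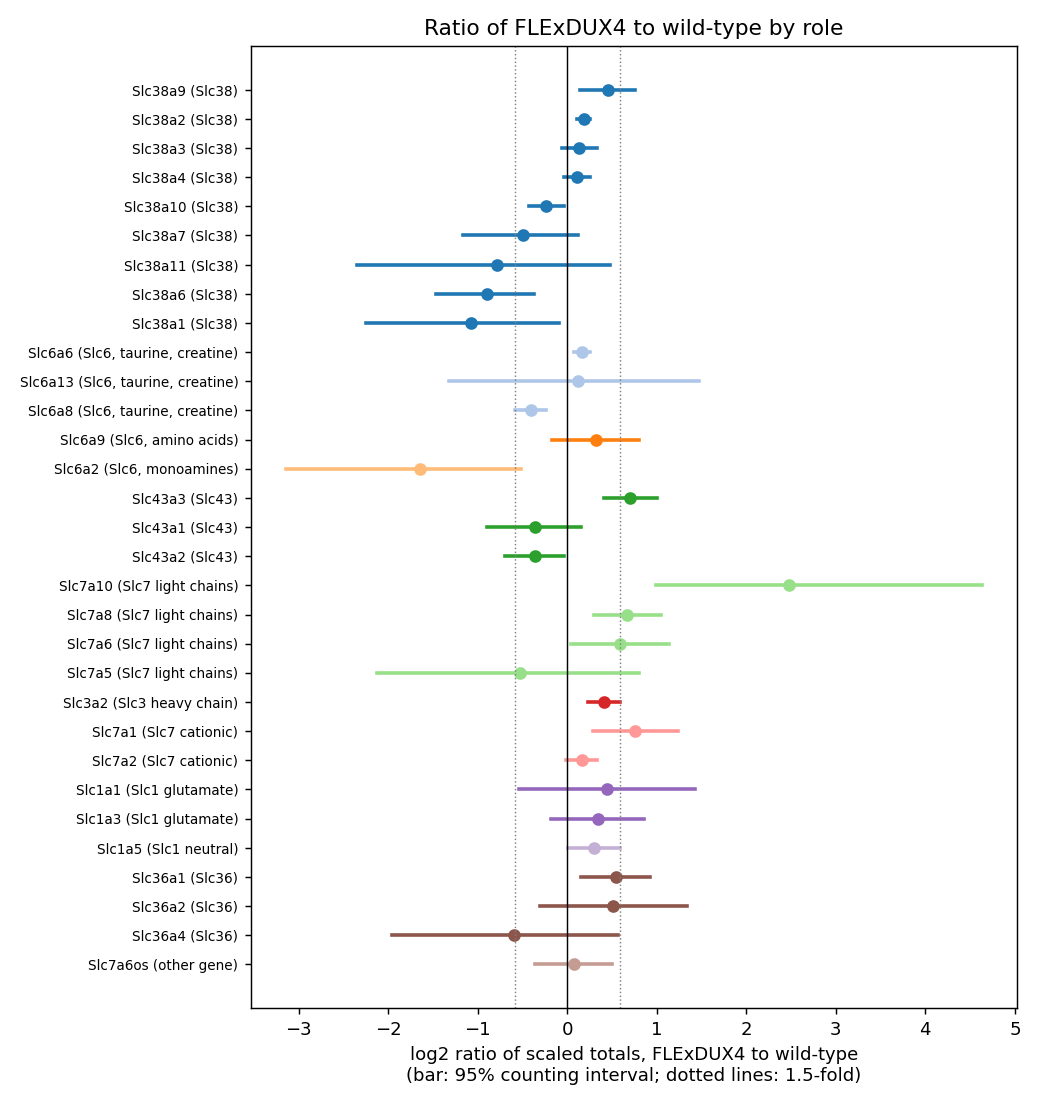
Log2 of FLExDUX4 over WT for 31 of the compared genes grouped by role, with the 95% counting interval as a bar and dotted lines at 1.5-fold. The Slc7 light chains Slc7a8 and Slc7a10 and the heavy chain Slc3a2 lie to the right of 0 and the Slc38 and Slc43 genes on both sides, while spike-in scaling would move every point left by 0.28.

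Promoters were searched because the circadian factors CLOCK and BMAL1 bind the E-box CACGTG, and the factor ATF4 binds elements with the core TGATGNAA in genes that respond to amino acid shortage. RefSeq promoters on GRCm38.p6, from 250 bases before to 50 after a start, were found for 49 of the 67 genes (70 promoters) and for 21 of the 32 compared genes. The E-box, which reads the same on both strands, was in 9 of the 70, beside 7.15% of all 32851 promoters. The core TGATGNAA, sought on both strands, was in 5 of the 70, beside 3.97% of all. None of the 21 compared genes with a promoter held the core in this window, but at 3.97% these are too few to tell them from other genes. Elements elsewhere in the genes were not searched. The holders of the core were Slc1a4, Slc6a21, Slc7a11 and Slc7a7, at no more than 8 counts in either total. The E-box promoters of the 3 compared genes that held one are shown to place the motif, which is in capitals. They lie at chr11:55204090-55204389 on the plus strand (Slc36a1, with 2 E-boxes), chr8:95853442-95853741 on the minus strand (Slc38a7) and chr2:84840073-84840372 on the plus strand (Slc43a1).
Slc36a1: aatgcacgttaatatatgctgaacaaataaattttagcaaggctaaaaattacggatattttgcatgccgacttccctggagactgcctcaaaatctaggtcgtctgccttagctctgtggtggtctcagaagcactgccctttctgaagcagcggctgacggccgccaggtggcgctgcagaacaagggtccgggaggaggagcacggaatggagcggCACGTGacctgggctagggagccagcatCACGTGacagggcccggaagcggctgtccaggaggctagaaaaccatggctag
Slc38a7: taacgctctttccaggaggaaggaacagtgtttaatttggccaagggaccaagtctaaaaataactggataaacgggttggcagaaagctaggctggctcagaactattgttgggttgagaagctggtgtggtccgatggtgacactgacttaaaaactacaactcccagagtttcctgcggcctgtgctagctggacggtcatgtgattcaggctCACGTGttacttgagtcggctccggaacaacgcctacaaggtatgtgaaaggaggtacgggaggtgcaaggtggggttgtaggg
Slc43a1: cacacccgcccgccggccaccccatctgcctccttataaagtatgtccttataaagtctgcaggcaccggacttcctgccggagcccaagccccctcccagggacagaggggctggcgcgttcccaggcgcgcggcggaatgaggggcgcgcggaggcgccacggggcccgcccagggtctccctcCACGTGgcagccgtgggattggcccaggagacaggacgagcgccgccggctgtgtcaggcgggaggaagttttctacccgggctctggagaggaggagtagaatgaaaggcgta
Slc36a1 had a ratio of 0.54, and Slc38a7 and Slc43a1 had ratios of -0.49 and -0.35 with CIs that held 0. With spike-in scaling the ratios were 0.27, -0.77 and -0.63. The CI of Slc36a1 then held 0, and those of Slc38a7 and Slc43a1 lay below 0. The E-box begins 31 and 3 bases before the start for Slc36a1, 34 before it for Slc38a7 and 64 before it for Slc43a1.

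Other genes of amino acid handling, from lists chosen with earlier results of these data known, were read beside the transporters. Of 20 amino acid carriers of other families, 13 were compared, 7 higher in FLExDUX4 mice and 6 lower, with a median ratio of 0.01. Slc25a12, the mitochondrial aspartate and glutamate carrier of muscle, had the most counts, 2717 against 4147, and a ratio of -0.09 (CI -0.16 to -0.02). Past both limits were 0 of the 13 in the higher direction, beside 9.93% of all genes, and 1 in the lower, beside 10.2%. It was Slc15a2, a peptide transporter, with 9 counts against 50 and a ratio of -1.89 (CI -3.17 to -0.92).

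Of 24 enzymes of amino acid metabolism, 21 were compared, with a median ratio of 0.05, and 4 were higher and 0 lower past both limits, beside 9.93% and 10.2% of all genes. Glul, which makes glutamine, the main substrate of Slc38a3, had 6526 counts in FLExDUX4 and 4437 in WT, a ratio of 1.07 (CI 1.02 to 1.13). Bcat2, the first enzyme of branched-chain amino acid breakdown, had 201 counts against 180 and a ratio of 0.68 (CI 0.38 to 0.97). Psph, which completes serine synthesis, had 148 against 135 and a ratio of 0.65 (CI 0.30 to 1.0). Asns, the asparagine synthetase and an ATF4 target, had 16 counts against 5 and a ratio of 2.10 (CI 0.68 to 4.0), and was kept by the filter through FLExDUX4 alone. With spike-in scaling Bcat2 (0.40) and Psph (0.37) were under 1.5-fold.

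Of 12 genes of the amino acid response through the kinase GCN2 and ATF4, all were compared. A higher scaled total was found for 10 of them, beside 6685 of all 13396 genes. The median ratio of the list was 0.36, or 0.08 with spike-in scaling. Of the 10, Atf4 (-0.26), Cebpb (-0.13) and Atf3 (-0.23) were below 0 with spike-in scaling. Atf4 itself had 1645 counts against 2321 and a ratio of 0.02 (CI -0.07 to 0.11). Past both limits, beside 9.93% of all genes in the higher and 10.2% in the lower direction, were Asns and Chac1, a glutathione-degrading enzyme with 1521 counts against 1001 and a ratio of 1.12 (CI 1.0 to 1.24), both higher, and Nupr1, with 26 against 89 and a ratio of -1.24 (CI -1.95 to -0.61). Of 25 genes of amino acid sensing by mTORC1, 23 were in the table and compared, 14 higher and 9 lower, with a median ratio of 0.25 that was -0.02 with spike-in scaling. Past both limits were 4 of the 23 in the higher direction (9.93% of all genes), namely Flcn (0.62), Wdr24 (0.69), Wdr59 (0.85) and Fnip2 (0.75), and 3 in the lower (10.2%). Sesn3 (-0.73), a relative of the leucine sensor Sesn2, Mios (-0.59) and Rragb, with 3 counts against 16 and a ratio of -1.72 (CI -4.32 to -0.09), were the lower ones, and Rragb was kept by the filter through WT alone. With spike-in scaling the 4 higher genes had ratios of 0.34 to 0.58, under 1.5-fold.

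**Figure D4:**
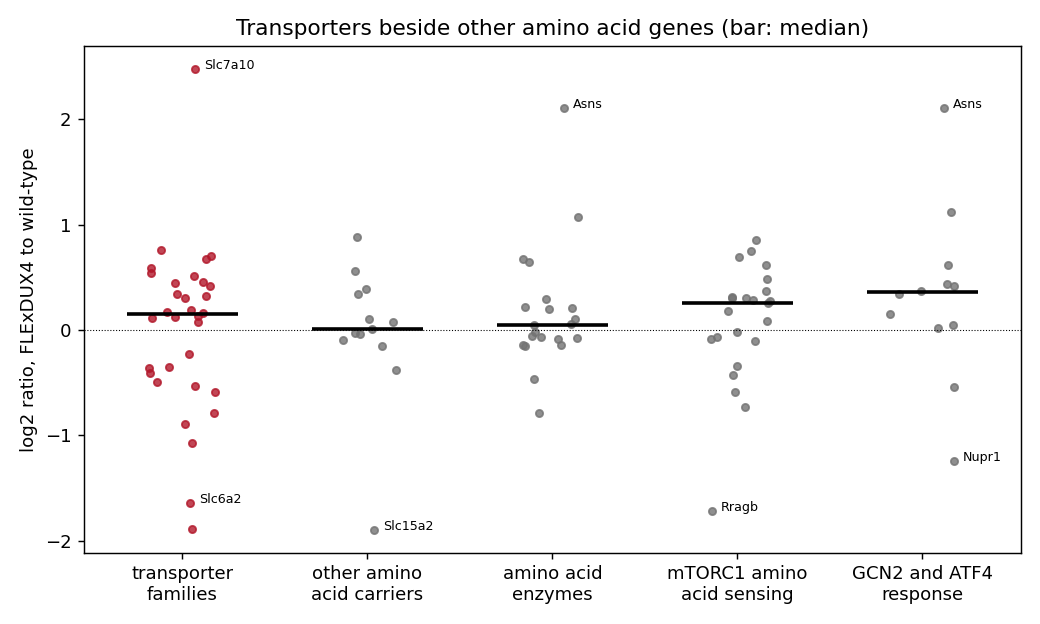
Log2 of FLExDUX4 over WT for each compared gene of the transporter families and of 4 other lists of amino acid genes, each point 1 gene and each bar the median of its list (0.15 for the transporters). Points spread on both sides of 0 in every list, and spike-in scaling would move all of them down by 0.28.

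Markers of other cells in the samples were read in the same totals. Of 10 blood and erythroid markers, 9 were in the table and 7 were compared. All 7 had a higher scaled total in FLExDUX4 mice, beside 6685 of all 13396 genes, and the 9 summed to 1337 CPM against 1077 CPM. The 2 not compared had 0 counts in FLExDUX4 and some in WT mice, among them the red cell membrane gene Slc4a1 with 0 against 6. With spike-in scaling the ratio of the blood marker sums was 0.04 in place of 0.31. The 10 fibroblast markers summed to 1841 CPM against 1618 CPM, with 8 higher, and the 10 macrophage and leukocyte markers to 109 CPM against 107 CPM, with 5 higher. With spike-in scaling the ratios of the fibroblast (-0.09), macrophage (-0.24), nerve (-0.22), adipocyte (-0.18) and endothelial (-0.35) sums were below 0. Their part in the transporter values was not tested.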

How the data were processed

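QuantSeq 3′ libraries of 6 mice were sequenced. Per the labels and the study's methods, the tools the authors named were Cutadapt 1.16 for trimming, STAR 2.5.3a for alignment to GRCm38 with ERCC and SIRV spike-in sequences, and featureCounts 1.6.2 for counting. The deposited counts used here are raw read counts per gene summed over each genotype. A further 6 columns of values per mouse match no sample label and were not used, nor were the columns with the authors' own fold changes, p-values and normalized means from DESeq2. A test across mice needs values tied to mice by label, so none was run.

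The filterByExpr filter and the TMM scaling came from edgeR 4.0.16 under R 4.3.3. Intervals were computed with scipy 1.17.1 in Python 3.11.15. They were tested on data simulated with counting error only, so that the test says nothing about spread between mice. The floor for a count of 0 was 3 counts in a total. The members, gene lists and limits were chosen with earlier results of these data known. Named genes are the compared members, apart from 1 that is not reported here, with full values for those past both limits (1.5-fold and a counting interval that excludes 0) and the 10 with the most counts, and listed genes of other pathways past both limits. Other named genes, and all pairs within a family, were added after their values were seen. Gene coordinates are from GENCODE M21 (GRCm38), printed where the start equals the deposited one. Alternatives were RLE, upper quartile, gene totals, spike-in totals, 2 filters, a pseudocount of 2 and a limit of 2-fold.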

Additional observations from a re-analysis of the deposited data

How the results depend on the processing

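No paired analysis was possible because only 1 total per genotype could be used, and for the same reason leaving out each mouse, the replicate block and DESeq2 were not run. Spike-in scaling changed the most: genes at least 1.5-fold higher went from 5 to 1 and at least 1.5-fold lower from 6 to 11, intervals above 0 from 11 to 4 and below 0 from 7 to 12, and the ratio of the summed genes from 0.13 to -0.14. Among all genes, those 1.5-fold higher went from 13.2% to 7.82% and lower from 13.5% to 23.7%, intervals above 0 went from 20.5% to 7.59% and below 0 from 20.6% to 47.1%, since every ratio falls by 0.28. Slc38a2 (-0.091) and Slc6a6 (-0.11), called higher under TMM scaling, changed sign there. Without a filter on low counts, 9 genes were at least 1.5-fold higher and 10 lower, out of 43, beside 20.8% and 25.1% of all genes. With at least 10 counts in each total, 3 were higher and 2 lower, out of 25, beside 10.9% and 8.72%. At a limit of 2-fold, 1 was higher (Slc7a10, kept by the filter through FLExDUX4 alone) and 3 were lower, beside 5.99% and 7.43%. The median ratio ranged from -0.13 with spike-in scaling to 0.17 with at least 10 counts in each total. RLE, upper quartile and gene totals changed no direction. Slc7a6 (0.59) fell under the limit of 1.5-fold with upper quartile (0.57), gene totals (0.56), no filter (0.58) and at least 10 counts in each total (0.57). Depth limits the genes with few counts most, and the spread between mice was not analysed here.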

Other observations

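Genes too sparse to be compared had counts in 1 genotype in a few cases, described here after their values were seen. Slc6a15, a carrier of branched-chain amino acids and proline best known from brain, had 0 counts in FLExDUX4 and 14 in WT. Slc1a2, a glutamate transporter, had 0 against 7, and Slc7a4 had 0 against 1. Slc6a18 and Slc6a19, neutral amino acid transporters of kidney and gut that lie 1721 bases apart on chromosome 13, had 5 and 6 counts in FLExDUX4 and 0 in WT. The kidney genes Umod, Kap and Slc34a1 had 0 counts in both totals.

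Beside Slc6a2, with 7 counts in FLExDUX4 and 33 in WT, another gene of sympathetic neurons had counts in WT mice alone. Slc18a2, the vesicular monoamine transporter, had 0 against 11. Th and Dbh, the enzymes that make noradrenaline, had 0 counts in both totals, which allows up to 0.231 CPM in FLExDUX4 mice and 0.162 CPM in WT mice. These genes were picked for their values, and which mice and which cells held the counts was not analysed here.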
